A study of Mus musculus with 2 samples.

Results

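The IL-1 and IL-18 receptor family is described here through 6 genes, chosen by name: Il1r1, Il1r2, Il1rl1, Il1rap, Il18r1 and Il18rap. All 6 are among the 32285 genes of both count matrices. Transcript 3' ends of single cells were sequenced in droplets, from C57BL/6J mice aged 18 to 20 weeks, with 1 library of tumor-infiltrating cells from colon tumor (labelled TIL) and 1 of intraepithelial lymphocytes from normal colon tissue (labelled IEL). Both are labelled as γδ T lymphocytes, the number of mice pooled and the tumour model are not given in the sources used here, and the preparation given for both libraries speaks of tumour tissue and of no sort or gate.

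Each captured transcript is counted by its unique molecular identifier (UMI). The TIL library had 94953893 UMIs in 13245 cell barcodes, and the IEL library 69414155 UMIs in 9398. After filtering, 12407 TIL cells (median 6465 UMIs) and 9128 IEL cells (median 6858.5 UMIs) remained, and 33 barcodes occurred in both libraries. Of these cells, 11700 TIL cells (94.3%) and 9079 IEL cells (99.5%) lay in clusters named γδ T-like. A UMI of Trdc, the constant segment of the δ chain, was found in 99.1% of the TIL and 96.8% of the IEL γδ T-like cells, and one of Trac, the α chain constant segment, in 37.3% and 77.8%. With 1 library per tissue there was no replicate check and no test. Every difference is between these 2 libraries, tissue and library cannot be told apart, and values in brackets after an estimate are 95% intervals of the counting error alone.

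IL-1α and IL-1β bind IL-1R1, the product of Il1r1, which then recruits the accessory chain IL-1RAP (Il1rap) and signals through MyD88 and IRAK kinases to NF-κB. IL-1R2 (Il1r2) binds the same ligands but lacks the intracellular signalling domain and so acts as a decoy. IL-18 signals through IL-18Rα (Il18r1) with IL-18Rβ (Il18rap), and IL-33 through ST2 (Il1rl1) with IL-1RAP. In mice, IL-1 acts together with IL-23 on some γδ T cells, whereas IL-18 is best known for raising interferon-γ in T and natural killer cells.

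Of the 6 genes, 5 lie side by side on the plus strand of mouse chromosome 1 (GRCm38), within 477.6 kb that also hold Il1rl2. Il1r2 spans chr1:40074079-40125231, Il1r1 chr1:40225080-40317257, Il1rl1 chr1:40429570-40465415, Il18r1 chr1:40465552-40500854 and Il18rap chr1:40515362-40551705. Il1rap lies apart, at chr16:26581704-26730117. Il1rl1 ends 136 bp before Il18r1 begins, so the annotated bodies do not overlap. The longest annotated coding sequence is 1230 bases for the decoy Il1r2 and 1728 bases for Il1r1. Il1rl1 has 3 distinct annotated coding lengths and Il1rap 6, and counts of 3' ends per gene do not tell soluble from membrane forms.

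The promoters of Il1r2, Il1r1 and Il18r1, genes higher in TIL than in IEL γδ T-like cells, are shown to give their sequence context. Each runs from 250 bases before to 50 bases after a RefSeq transcript start (GRCm38.p6, plus strand, 5′ to 3′), and all 6 genes had at least 1 of 10 such windows in the RefSeq table. Capitals mark matches to TTCNNNGAA, the palindromic GAS motif of STAT factors. The windows are chr1:40085843-40086142 for Il1r2, chr1:40224830-40225129 for 1 of the 2 Il1r1 starts and chr1:40465756-40466055 for 1 of the 3 Il18r1 starts.
Il1r2: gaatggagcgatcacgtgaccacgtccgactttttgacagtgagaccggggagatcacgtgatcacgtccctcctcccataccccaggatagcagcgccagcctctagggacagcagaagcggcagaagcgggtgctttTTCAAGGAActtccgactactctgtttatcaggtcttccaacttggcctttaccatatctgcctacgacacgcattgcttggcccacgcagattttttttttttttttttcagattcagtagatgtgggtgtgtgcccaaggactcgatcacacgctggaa
Il1r1: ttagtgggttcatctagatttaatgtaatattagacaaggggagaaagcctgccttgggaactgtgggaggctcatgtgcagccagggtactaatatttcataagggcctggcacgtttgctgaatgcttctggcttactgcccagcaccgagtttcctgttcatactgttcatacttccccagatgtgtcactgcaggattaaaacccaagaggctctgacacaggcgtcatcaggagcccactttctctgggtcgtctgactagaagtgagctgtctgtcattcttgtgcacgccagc
Il18r1: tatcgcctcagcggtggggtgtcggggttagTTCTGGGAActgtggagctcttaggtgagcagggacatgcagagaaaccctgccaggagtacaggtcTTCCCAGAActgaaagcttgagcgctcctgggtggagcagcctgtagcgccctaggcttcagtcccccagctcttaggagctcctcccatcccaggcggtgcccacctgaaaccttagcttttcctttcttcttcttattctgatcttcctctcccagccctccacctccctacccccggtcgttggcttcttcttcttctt
The Il1r2 window held 1 GAS match and the Il18r1 window 2, and 8.30% of all 32851 promoter windows held at least 1. The AP-1 motif TGANTCA (7.81% of windows) and the T-box half-site AGGTGTGA (1.28%) were also searched on both strands, and neither was found in these windows. The other 7 windows of the family held no match to any of these 3 motifs. These matches describe letters in a window and were not tested as binding sites.

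Il1r1, Il1r2, Il18r1 and Il18rap were far higher in TIL than in IEL γδ T-like cells. Levels are UMIs of a gene per 1000000 UMIs summed over cells (CPM). To be called higher in 1 library, a gene had to reach 20 CPM in either, differ at least 2-fold and have an interval excluding 1. By that rule 4 of the 6 genes were higher in TIL and none was higher in IEL, against a background of 11% of 6326 measured genes higher in TIL and 13.8% higher in IEL. Il1rap and Il1rl1 stayed under 20 CPM in both libraries. The 4 measured receptors reached 20 CPM in TIL only, so they passed the filter through the library where they were high. Their median log2 difference was 6.12, against -0.10 over all measured genes. That median therefore does not describe all 6 genes and adds no support to the difference.

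Il1r1, the signalling receptor, had 10973 UMIs (128 CPM) in TIL γδ T-like cells and 69 UMIs (1.01 CPM) in IEL γδ T-like cells. The log2 difference was 6.98 (6.64 to 7.35). Il1r2, the decoy, had 3239 UMIs (37.7 CPM) in TIL cells and 3 UMIs (0.04 CPM) in IEL cells, a log2 difference of 9.75 (8.20 to 12.02). The IEL level of Il1r2 thus rests on 3 counts.

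Il18r1, the ligand-binding chain for IL-18, had the highest level of the family in TIL γδ T-like cells, at 13741 UMIs (160 CPM), and 285 UMIs (4.17 CPM) in IEL cells, a log2 difference of 5.26 (5.09 to 5.43). Its partner Il18rap had 4325 UMIs (50.4 CPM) in TIL cells and 399 UMIs (5.84 CPM) in IEL cells, and differed least of the 4, by 3.11 (2.96 to 3.26) on the log2 scale. Il1rap, the shared accessory chain, was low in both libraries, with 488 UMIs (5.68 CPM) in TIL and 246 UMIs in IEL cells, which is 1.58-fold (log2 0.66, 0.43 to 0.88). Il1rl1 had 62 UMIs (0.72 CPM) in TIL cells and none among 9079 IEL cells. With the IEL count set to 3 UMIs the ratio is 16.4, which depends on that setting and is not the lower end of an interval. Capture of 3' ends can differ between genes, so the order of the levels across genes is that of UMIs, not of transcripts or receptor protein.

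**Figure D1:**
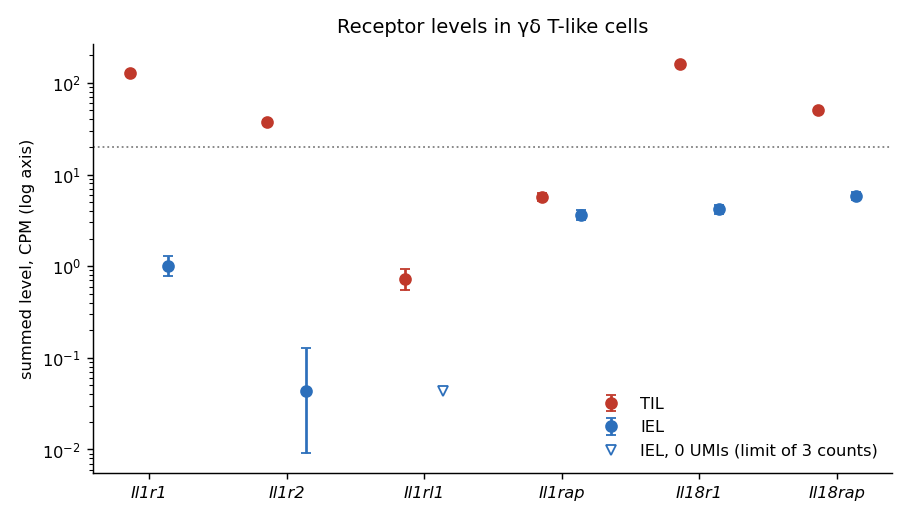
Summed level of each receptor gene in γδ T-like cells of the TIL library (red, left of each pair) and the IEL library (blue), in CPM on a log axis, with exact 95% counting intervals. The open triangle stands for 0 UMIs, drawn at 3 counts, and the dotted line marks 20 CPM, which Il1r1, Il1r2, Il18r1 and Il18rap passed in TIL only.

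Shares of cells with a UMI followed the same order. For them every cell was thinned to 2000 UMIs, which left out 62 TIL and 72 IEL γδ T-like cells as too shallow. Il1r1 was detected in 20.6% of TIL cells (19.9 to 21.4) and 0.18% of IEL cells (0.10 to 0.29), and without thinning in 47.5% and 0.42%. Il1r2 was detected in 4.31% of TIL and 0.01% of IEL cells (unthinned 9.97% and 0.03%). Il18r1 was detected in 24.8% of TIL and 0.72% of IEL cells (unthinned 49.7% and 2.17%).

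Il18rap was detected in 9.35% of TIL and 1.24% of IEL cells, Il1rap in 1.06% and 0.72%, and Il1rl1 in 0.16% and none of 9007 IEL cells. As a measure of free RNA, TIL cytotoxic-like cells (median 5673 UMIs, against 6389.5 in all TIL γδ T-like cells) had Il1r1 in 0.83% and Il1r2 in 0.46% of cells, and up to 66.1% of their Il1r1 and 41.9% of their Il1r2 UMIs were estimated as free RNA. These are upper limits, since the scale was set so that all Il17a in TIL cytotoxic-like cells counts as free. The TIL shares of Il1r1 and Il1r2 over all γδ T-like cells lay above that background.

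The receptors were high in some γδ T-like clusters and low in others. Clusters were built without the 6 genes and without the pathway genes below. Clusters 1, 3, 4 and 5 held 3195, 2538, 2119 and 1889 TIL cells, and 1098 TIL and 8898 IEL cells were cytotoxic-like (markers such as Gzma and Cd160). Il1r1 had 118 to 173 CPM in those 4 TIL clusters, against 4.22 CPM in TIL cytotoxic-like cells. Il18r1 had 92.3 to 279 CPM there, against 13.2 CPM in TIL cytotoxic-like cells, and Il18rap 28.6 to 71.2 CPM, against 9.16 CPM.

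TIL recirculating-like cells (711 cells, led by Ly6c2, Ccr7 and Klf2) held the IL-18 receptor without much IL-1 receptor: 49.3 CPM of Il18r1 and 27.9 CPM of Il18rap, but 4.70 CPM of Il1r1. TIL cycling-like cells (150 cells) had 86.6 CPM of Il1r1, 23.8 CPM of Il1r2, 69.3 CPM of Il18r1 and 42.1 CPM of Il18rap, against 0, 0, 0.62 and 3.74 CPM in 103 IEL cycling-like cells. All 4 were called higher in TIL there, against a background of 7.67% of 6300 genes, and all 4 reached 20 CPM in TIL only.

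**Figure D2:**
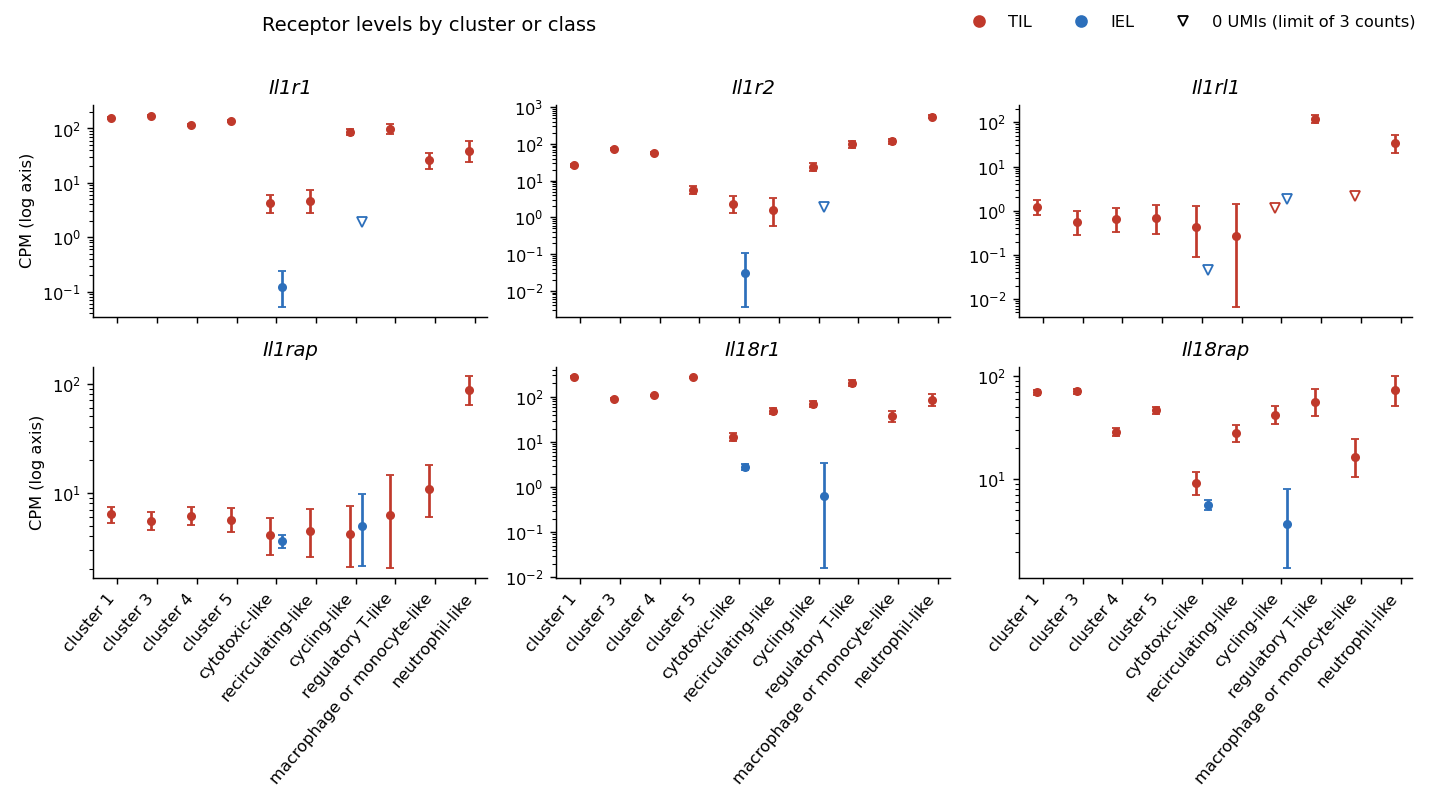
Level of each receptor gene in CPM on a log axis, by cluster or class of cell, in TIL (red, left) and IEL (blue), for groups of at least 50 cells, with exact 95% counting intervals; open triangles stand for 0 UMIs, drawn at 3 counts. Il1r1 has 118 to 173 CPM in TIL clusters 1, 3, 4 and 5, Il1r2 is highest in neutrophil-like cells at 554 CPM and Il1rl1 in regulatory T-like cells at 122 CPM.

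Cluster 5 was the 1 of these 4 clusters with more than 9 IEL cells, at 1889 TIL and 43 IEL cells. Within it, Il1r1 had 137 CPM in TIL and 166 CPM in IEL, a ratio of 0.823 (0.610 to 1.14). Il18r1 had 272 CPM in both libraries (interval of the ratio 0.793 to 1.28), and Il18rap had 46.5 CPM in TIL and 37.8 CPM in IEL, a ratio of 1.23 (0.664 to 2.58).

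The decoy Il1r2 had 5.56 CPM in TIL and 0 UMIs in IEL cells of cluster 5, where 3 counts would be 11.3 CPM, so a difference was not detectable at this depth.

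In cytotoxic-like cells none of the 6 genes reached 20 CPM in either library. Il18r1 had 13.2 CPM in TIL and 2.83 CPM in IEL, Il18rap 9.16 and 5.65 CPM, and Il1rap 4.07 and 3.58 CPM. In TIL cytotoxic-like cells there were 0.692 Il18rap UMIs per Il18r1 UMI (0.494 to 0.965), and in IEL cytotoxic-like cells Il18rap outnumbered Il18r1, with 374 against 187 UMIs. Clusters within the class differed: IEL cluster 9 had 35 Il18rap against 72 Il18r1 UMIs, and TIL cluster 14 had 22 against 13. In TIL cytotoxic-like cells up to 26.9% of Il18r1 and 12.3% of Il18rap UMIs were estimated as free RNA.

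The decoy varied more than the signalling receptor over clusters 1, 3, 4 and 5 of TIL. Il1r1 ranged from 118 CPM in cluster 4 to 173 CPM in cluster 3. Il1r2 had 72.8 CPM in cluster 3 (led by Spp1, Serpine2 and Areg), 57.4 CPM in cluster 4 (led by Il17f, Batf3 and Cd83), 25.9 CPM in cluster 1 (led by Ramp3, Epas1 and Il7r) and 5.56 CPM in cluster 5 (led by 5830411N06Rik, Lmna and Krt83). IEL cells in clusters 1, 3, 4 and 5 numbered 9, 1, 5 and 43, so these clusters are mostly of 1 library.

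Per Il1r1 UMI there were 0.484 Il1r2 UMIs (0.450 to 0.522) in cluster 4, 0.422 (0.396 to 0.449) in cluster 3, 0.168 (0.153 to 0.183) in cluster 1 and 0.041 (0.031 to 0.052) in cluster 5. The highest was 11.9 times the lowest, and 30.3 times for the counterparts of these clusters at Leiden resolution 2.0. Over all γδ T-like cells the ratio was 0.295 (0.284 to 0.307) in TIL and 0.043 (0.009 to 0.132) in IEL. Il18r1 ran the other way, with 279 CPM in cluster 1 and 272 CPM in cluster 5, against 108 CPM in cluster 4 and 92.3 CPM in cluster 3. Il18rap did not follow its partner, at 71.2 CPM in cluster 3, 69.4 CPM in cluster 1, 46.5 CPM in cluster 5 and 28.6 CPM in cluster 4, so that cluster 3 had 0.771 Il18rap UMIs per Il18r1 UMI and cluster 5 had 0.171.

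**Figure D3:**
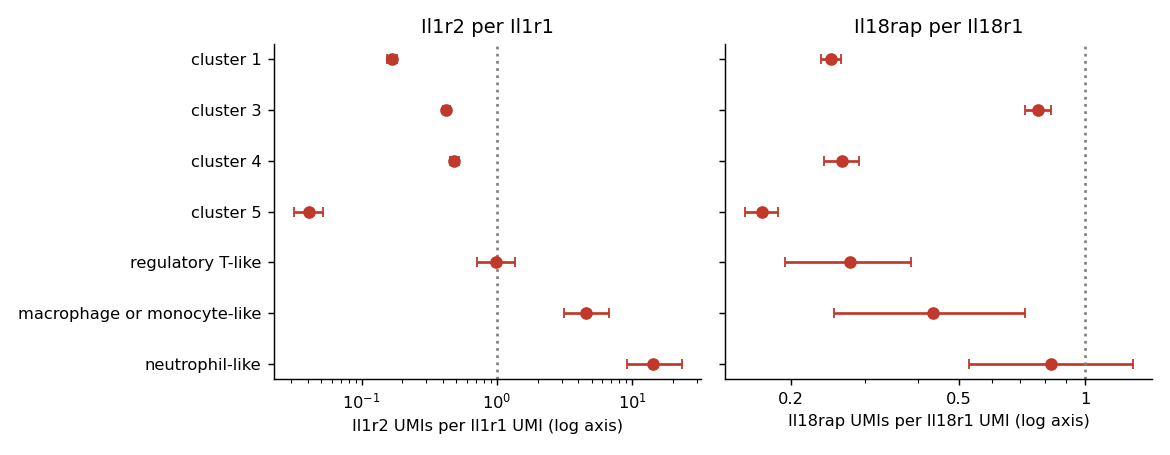
UMIs of the decoy Il1r2 per Il1r1 UMI (left panel) and of Il18rap per Il18r1 UMI (right panel) in TIL clusters and classes, on log axes with exact 95% intervals; the dotted line marks equal counts. Il1r2 per Il1r1 spans 0.041 in cluster 5 to 14.2 in neutrophil-like cells.

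At 2000 UMIs per cell, few TIL γδ T-like cells showed both IL-1 receptors. Of TIL γδ T-like cells at 2000 UMIs, 19.6% had Il1r1 without Il1r2, 3.31% had Il1r2 without Il1r1, 1.01% (117 cells) had both and 76.0% had neither. At least 1 of the 6 genes was found in 46.8% of TIL and 2.78% of IEL cells. In TIL γδ T-like cells, Il1r2 was found in 4.87% of cells with Il1r1 and 4.17% of cells without it. By cluster, the shares with and without Il1r1 were 3.78% and 3.02% in cluster 1 and 7.42% and 8.75% in cluster 3. They were 6.74% and 7.5% in cluster 4, and 0.899% and 0.976% in cluster 5. The share with Il1r1 was thus higher in cluster 1 and lower in clusters 3, 4 and 5, with overlapping intervals in each. At this depth most cells that carry a transcript show no UMI of it, and without thinning 13.0% of TIL cells with Il1r1 also had Il1r2. Among all UMIs, 5560 TIL γδ T-like cells had Il1r1, 1166 had Il1r2 and 6002 had either. Most cells with Il1r2 thus also had Il1r1.

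Il1r2 was found in 2.53% of TIL γδ T-like cells with Il18r1 and 4.90% of those without. By cluster, the shares with and without Il18r1 were 1.78% and 4.12% in cluster 1, 5.42% and 8.96% in cluster 3, 5.08% and 7.87% in cluster 4, and 1.22% and 0.79% in cluster 5. Il18rap was found in 12.2% of TIL γδ T-like cells with Il18r1 and 8.40% of those without, and Il18r1 in 31.5% of those with Il1r1 and 23.0% of those without. In clusters 1, 3, 4 and 5 the Il18rap shares were 13.2% and 11.7%, 16.3% and 12.7%, 10.2% and 4.90%, and 9.88% and 8.76%. The Il18r1 shares with and without Il1r1 were 42.2% and 37.7%, 18.3% and 15.2%, 21.4% and 18.0%, and 43.1% and 38.1%. Cells of 1 library are not replicates, so these shares describe this library.

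By all UMIs of a cell, 6002 TIL γδ T-like cells had a UMI of either IL-1 receptor. Of these, 84.7% had more Il1r1, 11.9% more Il1r2 and 3.38% equal numbers. More Il1r2 than Il1r1 was seen in 20.1% of such cells in cluster 4, 15.4% in cluster 3, 6.60% in cluster 1 and 2.45% in cluster 5. In IEL, 38 of 40 such cells had more Il1r1.

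Numbers of UMIs per cell with the gene differed between the 2 receptors and by cluster. TIL γδ T-like cells with Il1r2 held 2.78 UMIs of it on average, up to 35 in 1 cell, and 31.0% of them held 3 or more. Cells with Il1r1 held 1.97 UMIs of it on average, up to 15, and 24.9% held 3 or more. The mean for Il1r2 was 3.15 in cluster 3 and 1.32 in cluster 5, and that for Il1r1 was 2.14 in cluster 3 and 1.76 in cluster 5. Il1r2 also had the lower mean in cycling-like cells (2.14 against 2.28 for Il1r1). The 117 cells with most Il1r2 carried 38.7% of its UMIs, and the 556 cells with most Il1r1, the same share of the cells with that gene, carried 25.6%.

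**Figure D4:**
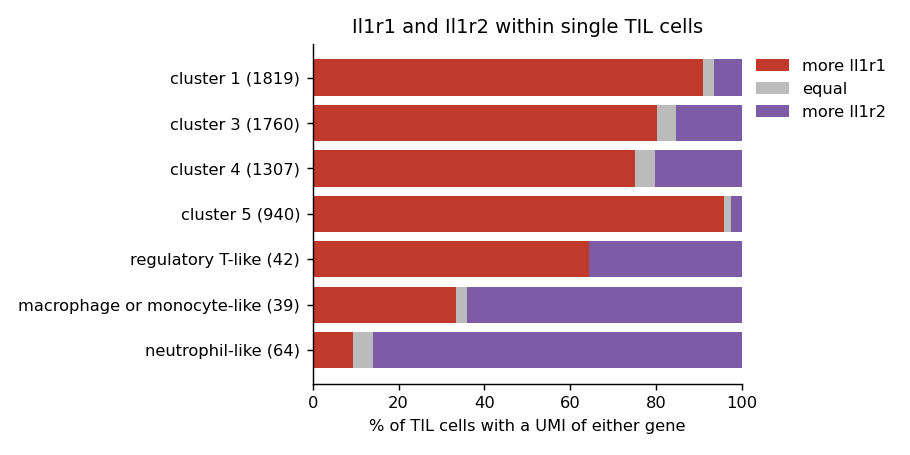
TIL cells with a UMI of Il1r1 or Il1r2, split by which of the 2 had more UMIs in the cell, as a percent of such cells in each cluster or class (their number in brackets). Cells with more Il1r1 make up 96.0% in cluster 5, 75.2% in cluster 4 and 9.38% among neutrophil-like cells.

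Il1r2 is also known as a neutrophil gene, and TIL neutrophil-like cells (83 cells) had 554 CPM of Il1r2. The 7 neutrophil markers, among them S100a8 and S100a9, summed to 31.3 CPM in TIL γδ T-like cells, 0.923 CPM in IEL γδ T-like cells and 114146 CPM in neutrophil-like cells. In TIL cells with no UMI of 13 neutrophil and macrophage markers, Il1r2 had 73.6 CPM in cluster 3 (1976 cells), 53.6 CPM in cluster 4 (1667 cells), 24.4 CPM in cluster 1 (2550 cells) and 5.48 CPM in cluster 5 (1532 cells). In all cells of these clusters it had 72.8, 57.4, 25.9 and 5.56 CPM.

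Neutrophil-like cells had 14.2 Il1r2 UMIs per Il1r1 UMI (9.11 to 23.3) and macrophage or monocyte-like cells (114 cells) 4.53 (3.14 to 6.69). Many of these droplets also held γδ T transcripts: 48 of the 83 neutrophil-like and 76 of the 114 macrophage or monocyte-like cells had a Trdc UMI. In the 35 neutrophil-like cells without Trdc, Il1r2 had 696 CPM, Il1rap 121 CPM, Il18rap 127 CPM, Il18r1 16.6 CPM and Il1r1 0 UMIs. With Trdc, Il1r2 had 482 CPM, Il1r1 58.9 CPM and Il18r1 123 CPM. In the 38 macrophage or monocyte-like cells without Trdc, Il1r2 had 57.7 CPM and both Il1r1 and Il18r1 had 0 UMIs. IEL held no cluster of either kind.

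Il1rl1, the IL-33 receptor, was mostly outside the γδ T-like cells. Regulatory T-like cells (83 cells, 0.669% of TIL cells) carried 98 of its 178 UMIs in the TIL library (55.1%), at 122 CPM, and 31.3% of them had a UMI (18.1% thinned). Of these 83 cells 51 had Foxp3, the defining factor of regulatory T cells, 74 had Trac and 54 had Trdc, and Il1rl1 had 124 CPM in those with Foxp3 and 117 CPM in those without. They also had 203 CPM of Il18r1, 79 UMIs of Il1r1 and 78 of Il1r2, and Il1r2 had 128 CPM with Foxp3 and 33.9 CPM without. Of the 18 Il1rl1 UMIs in neutrophil-like cells, 15 lay in 4 cells with Cpa3, a mast cell protease.

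Of the ligands, the IL-1 genes were found in the myeloid cells of the tumour. Il1b, which encodes IL-1β, had 8169 CPM in TIL neutrophil-like and 5316 CPM in TIL macrophage or monocyte-like cells, and Il1rn, the receptor antagonist, 898 and 961 CPM. In γδ T-like cells Il1b had 4.75 CPM in TIL, of which up to 66.1% was estimated as free RNA, and 0 UMIs in IEL. Il18 had 10.8 CPM in TIL macrophage or monocyte-like cells, 0 UMIs in neutrophil-like cells, and 5 UMIs in TIL and 14 UMIs in IEL γδ T-like cells. Il33, which encodes the ligand of ST2, had 0 UMIs in both myeloid classes. Il18bp, which binds and blocks IL-18, had 1.11 CPM in TIL and 0.86 CPM in IEL.

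Downstream of the receptors, the NF-κB genes were the group that differed most. Of 46 listed pathway genes, 41 were in the files and 26 reached 20 CPM in γδ T-like cells. Of these, 6 were higher in TIL and 3 higher in IEL, with a median log2 difference of 0.11, against the background given above of 11% of all measured genes higher in TIL and 13.8% higher in IEL. The 3 of 26 higher in IEL are near that background. Within the NF-κB and feedback list, 5 of 9 genes were higher in TIL and 0 of 9 in IEL, with a median of 1.52. Nfkb1, an NF-κB subunit precursor, had 608 CPM in TIL and 120 CPM in IEL, and Nfkbia, which encodes the inhibitor IκBα, 1561 and 403 CPM. Nfkb2 had 202 and 67.6 CPM, Nfkbid 53.3 and 18.6 CPM, and Zc3h12a, an RNase that limits inflammatory transcripts, 184 and 56.4 CPM.

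Among 12 measured adaptors and kinases, Irak3, an IRAK that restrains the pathway, was higher in TIL at 56.3 CPM against 2.30 CPM, and Ikbkb, an IκB kinase, had 52.2 CPM in TIL against 124 CPM in IEL and was higher in IEL. The central adaptor Myd88 had 37.2 CPM in TIL and 29.6 CPM in IEL and was not called, nor were Irak2, at 109 and 99.0 CPM, and Traf6, at 23.2 and 26.6 CPM. Sigirr, an inhibitory receptor of the family, had 17.7 and 25.6 CPM. Of the ligand-processing genes, Casp1 (13.3 and 48.3 CPM) and Gsdmd (21.0 and 48.1 CPM) were higher in IEL.

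In cytotoxic-like cells 2 of 24 measured pathway genes were higher in TIL, Nfkb1 (237 and 117 CPM) and Nfkb2 (139 and 67.3 CPM), and none in IEL, against backgrounds of 2.05% and 4.46% of 6037 genes.

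**Figure D5:**
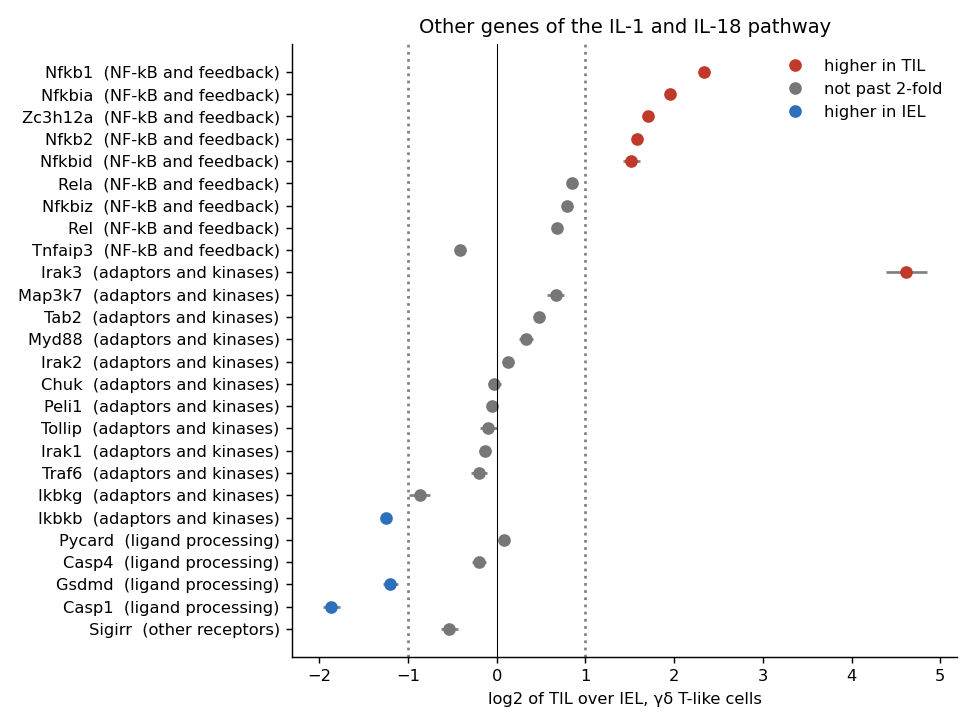
Log2 of the TIL over the IEL level for the 26 measured pathway genes in γδ T-like cells, by role, with 95% counting intervals; dotted lines mark 2-fold. Nfkb1, Nfkbia, Zc3h12a, Nfkb2, Nfkbid and Irak3 lie beyond 2-fold on the TIL side, and Ikbkb, Gsdmd and Casp1 on the IEL side.

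In γδ T-like cells Il17a had 4525 CPM in TIL and 9.13 CPM in IEL, Il23r 40.5 and 0.50 CPM, and Areg, an epidermal growth factor receptor ligand, 5721 and 10.4 CPM. Ifng had 5.47 CPM in TIL and 65.8 CPM in IEL, and Tbx21, a factor that drives it, 258 and 3768 UMIs.

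TIL γδ T-like cells with Il1r2 (502 cells at 2000 UMIs) were set beside the 11136 without it. Tff1, a trefoil peptide, had 172 CPM with and 27.8 CPM without, and Serpine2, a serine protease inhibitor, 251 and 80.6 CPM. Xcl1, a chemokine of cytotoxic lymphocytes, was lower, at 1.99 and 51.6 CPM. The 2 sets differ in class make-up: only 5 of 1087 cytotoxic-like and 2 of 705 recirculating-like cells had Il1r2. Xcl1 was also among the markers that named cytotoxic-like cells, so these values do not separate Il1r2 from class. Before thinning, the cells with Il1r2 had a median of 8529 UMIs and those without 6324.

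Across 18 units of 1 library and 1 cluster with at least 100 cells (11 TIL, 7 IEL; the TIL units include the macrophage or monocyte-like cluster, where Il1r2 was highest among the units, and the mixed unnamed cluster), the genes most like each receptor were ranked among 7972 genes by Pearson r of log2(CPM + 1). Il1r1 was most like Abi3bp, Prr29, Jcad, Ablim3 and Tnfrsf25 (r 0.992 to 0.995), and Il1r2 most like Pkib (0.973), Cyba, Tff1, Slc37a2 and Ccr1 (0.961). Il18r1 was most like Ramp1 (0.973) and Il18rap most like Cish (0.970). Il1rap and Il1rl1 had no gene above 0.811 and 0.808. Il1r1 and Il1r2 had r of 0.898 over all units and 0.732 over the 11 TIL units. The units share 2 libraries, so these values describe the difference between the libraries as much as that between clusters.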

How the data were processed

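The authors deposited raw UMI counts, as whole numbers for each gene in each barcode of 10x Genomics 3' v3 libraries, with no normalization. Cell Ranger 6.1.1 and mm10 are named in the submitters' processing notes. Cells were kept with at least 500 genes, 1000 UMIs and at most 10% mitochondrial UMIs. The 2 libraries were clustered jointly with no correction for batch (Scanpy 1.11.5, igraph 0.11.9, 2000 variable genes, 30 principal components, 15 neighbours, Leiden resolution 1.0), leaving the 6 receptors and the pathway list out. A cell type other than γδ T was named when at least 3 of its markers reached 50 CPM and at least 2 were also 4-fold above the other clusters. Other clusters counted as γδ T-like with at least 3 of the γδ T markers, which include Cd3 genes, at 50 CPM. They took the subset with the largest share of markers detected, or cycling-like with at least 3 cycling markers 4-fold higher. Clusters of low depth or with tied names stayed unnamed. Class names come from this rebuilt clustering. No doublets were called or removed, and a mixed cluster stayed unnamed.

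Counts were summed per class and library. Ratios have exact conditional and shares exact Clopper-Pearson 95% intervals, which treat UMIs and cells as independent. A count of 0 was set to 3 UMIs over the group. Free RNA was given the make-up of all cells of a library, and in TIL was scaled so that all Il17a of cytotoxic-like cells counts as free, which makes it an upper limit. The receptors, pathway list and markers were chosen with earlier results of these data known. Named genes were all 6 receptors, the pathway and context lists, the 5 most alike and the 10 furthest apart by Il1r2, of which some are given. Some classes, genes and motifs are not reported here. Taking cluster 5 alone and the splits by Trdc, Foxp3, Cpa3 or myeloid markers were added after the data were seen. The ratio and thinning steps were tested on simulated data.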

Additional observations from a re-analysis of the deposited data

How the results depend on the processing

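The 4 receptors counted as higher in TIL γδ T-like cells stayed so under all 12 alternatives of cell filter, class rule, clustering, scaling, free RNA and top UMI totals. Their log2 differences ranged from 5.41 to 9.19 for Il1r1, 8.99 to 10.0 for Il1r2, 4.23 to 5.61 for Il18r1 and 2.80 to 3.23 for Il18rap. For the genes under 20 CPM the range was 1.83 to 5.51 for Il1rl1 and 0.61 to 1.15 for Il1rap. The lowest Il1r1 and Il18r1 values came from the rule that takes cells by receptor UMIs, and the cause was not tested. The percent of TIL cells with Il1r1 that also had Il1r2 was 4.87 and followed the depth: 3.64 at 1000 UMIs, 7.93 at 4000 UMIs, 13.0 with no thinning and 0.640 when 2 UMIs were asked for. The highest over the lowest Il1r2 per Il1r1 among clusters 1, 3, 4 and 5 of TIL was 11.9, and 30.3 for their counterparts at resolution 2.0, where clusters are smaller. Pathway genes higher in IEL numbered 3, and 1 at a minimum of 50 CPM, which tests fewer genes. Of the 30 genes most like a receptor, 7 stayed with Spearman's rho. Regulatory T-like cells carried 53.9 to 55.1% of the Il1rl1 UMIs under the other clusterings. Among the other values, 93 stayed within their counting interval and 66 moved. No paired analysis was possible because each group has 1 library, and none could be left out.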
